A study of Mus musculus with 8 samples.

Results

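Expression of 10 genes of the T cell checkpoint and costimulatory system was described in 4T1 mammary tumors. The tumor cells were labelled CD95 wild type or knockout and grew in NSG mice, which lack lymphocytes, or in Balb/c mice. The 10 were taken by name from the 25006 gene identifiers counted in every library, and all 10 were found by Ensembl identifier. All passed the filter on low counts, Ctla4, Icos and Cd96 only through their Balb/c libraries. They comprise 8 receptor genes, namely the costimulatory receptors Cd28 and Icos and the inhibitory receptors Ctla4, Pdcd1, Lag3, Havcr2, Tigit and Cd96, and 2 ligand genes, Cd274 (PD-L1) and Pdcd1lg2 (PD-L2).

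4T1 cells derive from a mammary carcinoma of a Balb/c mouse and model triple-negative disease. Its cells were placed in the mammary fat pad, tumors were collected at no later than 20 days, and total RNA of each tumor sample was sequenced to give 8 libraries in 4 groups of 2. NSG wild type held the parental line and a line named vCas9 grown in NSG mice, a strain that has no mature lymphocytes of the T, B or NK lineages. Balb/c wild type held the same lines grown in Balb/c mice, whose immune system is intact. The hosts are also different strains, and lymphocyte status cannot be told apart here from other differences between the strains. NSG knockout and Balb/c knockout held 4T1 clones 54 and 69, in which CD95, the death receptor encoded by Fas, had been disrupted with CRISPR/Cas9. No label gives the hosts a knockout of CD95, so Fas of host cells can be present in every group. The knockout lines are single clones, which no label says of the parental or vCas9 line, and clonality cannot be told apart from CD95 status. Whether a library pools several tumors, the age of the mice and whether the replicates came from separate animals are not given in the sources used here, so the p-values measure only the spread between these samples, which are also different lines. In each group the parental or clone 54 tumor is given first and the vCas9 or clone 69 tumor second.

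T cells are activated when the antigen receptor and CD28 are engaged together, CD28 by CD80 or CD86 on another cell. Activated T cells then bring up ICOS, a further costimulatory receptor, and a set of inhibitory receptors that limit the response, among them CTLA-4, which competes with CD28 for CD80 and CD86, and PD-1, which is engaged by PD-L1 and PD-L2. In tumors these receptors are found on regulatory T cells and on T cells under lasting stimulation, interferon gamma induces PD-L1 on tumor and myeloid cells, and antibodies to CTLA-4, PD-1 and PD-L1 are used in cancer treatment. Myeloid cells also carry some of these molecules, TIM-3 (Havcr2) and PD-L2 in particular.

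The genes lie in a few clusters. On the GRCm38 build Cd28 (chr1:60716800-60773359), Ctla4 (chr1:60887000-60915832) and Icos (chr1:60977927-61000320) are neighbours on the plus strand, and Pdcd1 (chr1:94038305-94052553) is on the minus strand of the same chromosome. Cd274 (chr19:29367455-29388095) and Pdcd1lg2 (chr19:29410919-29471161) are neighbours on the plus strand of chromosome 19. Tigit (chr16:43648867-43664146) and Cd96 (chr16:46035657-46120251) are both on the minus strand of chromosome 16. Lag3 (chr6:124904361-124911705) is on the minus strand and Havcr2 (chr11:46454935-46481255) on the plus strand.

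Upstream sequences are shown for the 4 genes whose contrast the results turn on: Ctla4 and Pdcd1, which were at or near the detection floor in NSG tumors, and the neighbouring ligands Cd274 and Pdcd1lg2, whose values lay at opposite ends of the Balb/c libraries in the clone 54 tumor. Each is the 250 bases before the gene start in RefSeq on GRCm38.p6, read 5′ to 3′ on the gene's strand, with motif matches in capitals. The RefSeq start of Ctla4 lies downstream of the start of the gene model given above, which is GENCODE's, so that its window falls inside that longer model.
Ctla4 promoter, chr1:60908775-60909024, plus strand: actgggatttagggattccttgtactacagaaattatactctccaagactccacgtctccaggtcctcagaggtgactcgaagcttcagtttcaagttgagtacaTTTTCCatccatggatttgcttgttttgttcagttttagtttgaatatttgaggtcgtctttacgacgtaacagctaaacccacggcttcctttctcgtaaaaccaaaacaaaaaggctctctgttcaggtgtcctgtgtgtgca
Pdcd1 promoter, chr1:94052554-94052803, minus strand: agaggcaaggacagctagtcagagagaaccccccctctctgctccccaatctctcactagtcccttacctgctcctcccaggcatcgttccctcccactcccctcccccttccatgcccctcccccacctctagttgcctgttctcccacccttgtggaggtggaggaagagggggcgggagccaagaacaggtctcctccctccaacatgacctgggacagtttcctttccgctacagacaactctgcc
Cd274 promoter, chr19:29367188-29367437, plus strand: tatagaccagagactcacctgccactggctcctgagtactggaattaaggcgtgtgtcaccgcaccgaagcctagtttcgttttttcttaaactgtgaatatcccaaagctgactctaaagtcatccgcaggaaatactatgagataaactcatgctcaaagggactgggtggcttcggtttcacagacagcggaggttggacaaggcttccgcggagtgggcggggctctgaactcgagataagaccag
Pdcd1lg2 promoter, chr19:29410669-29410918, plus strand: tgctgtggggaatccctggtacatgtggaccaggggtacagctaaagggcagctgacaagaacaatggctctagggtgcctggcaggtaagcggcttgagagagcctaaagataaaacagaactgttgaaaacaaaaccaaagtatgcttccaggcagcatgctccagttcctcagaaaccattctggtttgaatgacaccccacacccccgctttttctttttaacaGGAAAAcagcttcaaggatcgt
The capitals mark the NFAT core GGAAAA, read on either strand, which began 145 bases before the start of Ctla4 and 22 bases before that of Pdcd1lg2. Windows of the same length held that core in 20.4% of 32851 RefSeq promoters. The other motifs searched on both strands were the GAS element TTCNNNGAA (7.02% of promoters), the core of the ISRE element (2.98%), the AP-1 site TGANTCA (6.75%) and the TATA box TATAAA (12.4%). None of the 5 motifs occurred in the windows of Pdcd1 and Cd274, which says only that these letters are absent there. RefSeq gave an entry for 7 of the 10 genes, and in the other 3 windows found, Tigit held the NFAT core 14 bases before its start, Havcr2 the AP-1 site at 200 bases and Cd96 the GAS element at 79 bases and the TATA box at 214 bases. A match is a description of the sequence and no evidence of binding.

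Library totals ran from 8.68 M to 19.7 M counts (M for mega), and levels are given as CPM, the customary depth-scaled count unit, here with TMM-scaled library totals. A floor of 3 counts, which covers counting error only, came to between 0.159 and 0.321 CPM. Fas, the targeted gene, read 33.9 and 22.6 CPM in NSG wild type, 29.5 and 12.9 CPM in NSG knockout, 51.6 and 46.9 CPM in Balb/c wild type and 27.1 and 33.7 CPM in Balb/c knockout. Its log2 difference between knockout and wild type was -0.42 (SE 0.37, edgeR adjusted p = 0.628) in NSG and -0.70 (SE 0.36, adjusted p = 0.225) in Balb/c tumors. The libraries of the groups overlapped in NSG hosts and were apart in Balb/c hosts, and knockout status here rests on the labels. Markers of T cells were nearly absent from the NSG tumors: the summed level of 14 T cell core genes was 8.03 to 13.9 CPM in NSG tumors and 571 to 839 CPM in Balb/c tumors. Cd3g had no count in 3 of the 4 NSG libraries and Cd8b1 in 2 of them, and Cd4, the highest of the list in NSG tumors, stood at 2.68 to 4.29 CPM there.

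**Figure D1:**
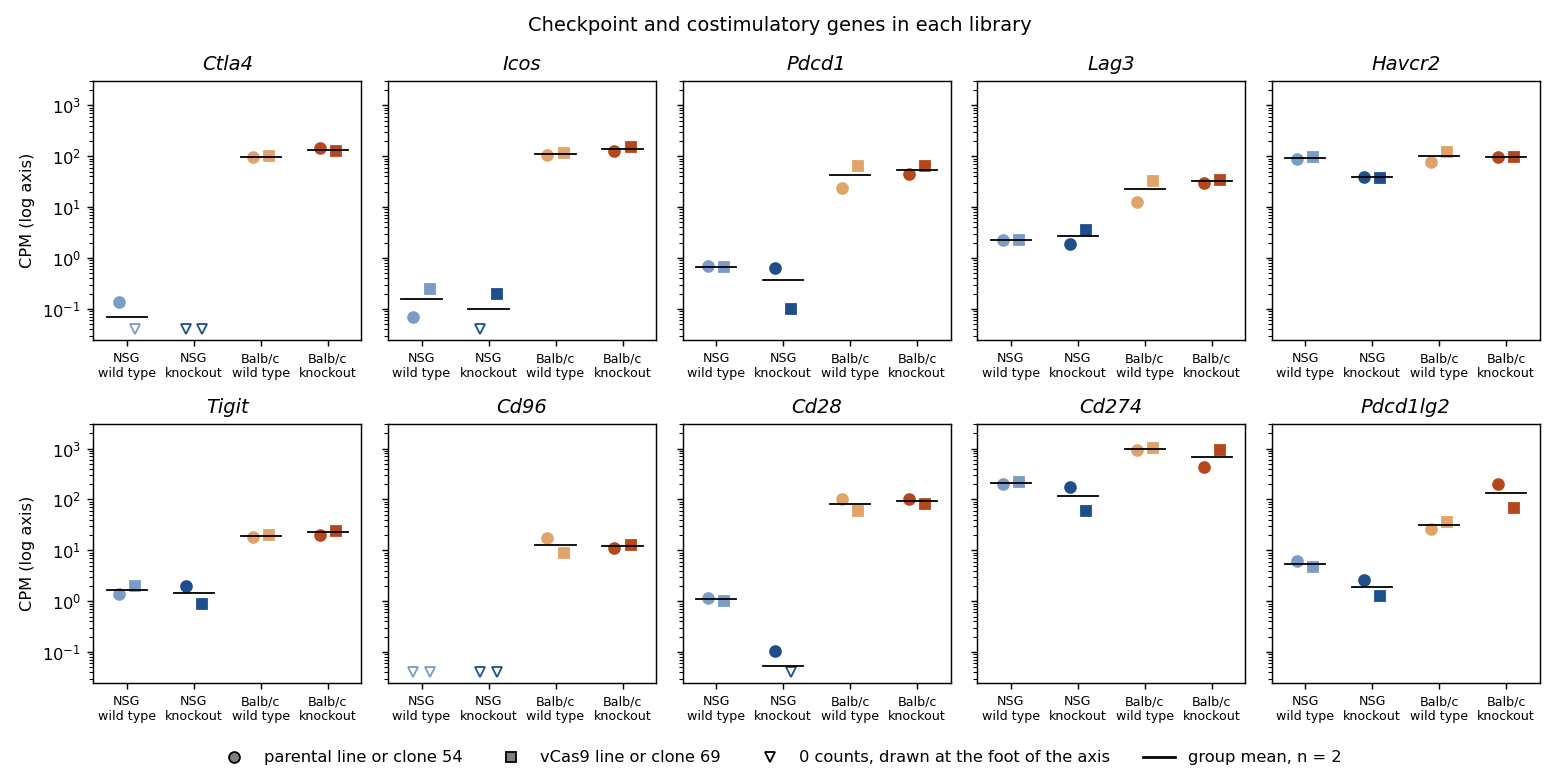
CPM of each of the 10 genes in every library on a log axis, by group, with circles for the parental line or clone 54, squares for the vCas9 line or clone 69, open triangles for 0 counts and lines for the mean of 2 libraries. Ctla4, Icos and Cd96 lie at or under 3 counts in all 4 NSG libraries, while Havcr2 and Cd274 are well above the floor in all 8.

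In tumors of the wild-type lines, 9 of the 10 genes were higher in Balb/c than in NSG hosts at an edgeR adjusted p under 0.05, and none was lower. Over all 15310 genes tested, 15.3% were higher and 16.2% lower at that threshold, 31.5% in either direction. Ctla4, Icos and Cd96 were at or under 3 counts in every NSG library, Cd28 and Pdcd1 differed more than Lag3 and Tigit, the ligands Cd274 and Pdcd1lg2 differed by less, and Havcr2 did not pass. Ctla4, Icos and Cd96 passed the low-count filter through the Balb/c groups alone, so their direction was set in advance in both host comparisons. The libraries of the groups did not overlap for the same 9 genes, against 35.4% of all genes that were higher without overlap. The median log2 difference of the 10 was 4.74, or 4.60 with genes at the floor set to their bound, beside a median of -0.079 over all genes tested. In bulk tissue fewer cells of a type and less RNA per cell cannot be told apart, and the T cell core list differed in the same libraries, with 14 of its 14 genes higher; its part in these differences was not tested.

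In tumors of the knockout clones, all 10 genes were higher in Balb/c than in NSG hosts at an edgeR adjusted p under 0.05, against 15.7% of all genes higher and 31.1% changed in either direction. The libraries were apart for all 10, against 32.4% of all genes that were higher without overlap. The median log2 difference was 6.67, or 5.67 with genes at the floor set to their bound, beside 0.022 over all genes tested. The 14 T cell core genes were again all higher. The host comparisons in wild-type and knockout tumors use different libraries.

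The costimulatory receptors were among the genes that separated the hosts most. CD28 delivers the second signal for T cell activation. Cd28 read 1.18 and 0.994 CPM in NSG wild type, 0.107 and 0 CPM in NSG knockout, 102 and 58.0 CPM in Balb/c wild type and 104 and 82.4 CPM in Balb/c knockout. Every Balb/c library was far above every NSG library, and within NSG the knockout libraries, with 1 and 0 counts, lay under the wild-type ones, with 17 and 12 counts. The log2 difference between hosts was 6.18 in wild-type tumors (SE 0.40, edgeR adjusted p = 0.000347). Cd28 was at least 290-fold higher in Balb/c than in NSG tumors of the knockout clones (adjusted p = 0.000186), measured against 3 counts per library. ICOS supports helper and regulatory T cells after activation. Icos read 0.0693 and 0.248 CPM in NSG wild type, 0 and 0.199 CPM in NSG knockout, 106 and 114 CPM in Balb/c wild type and 124 and 152 CPM in Balb/c knockout. No NSG library held more than 3 counts of Icos and no Balb/c library fewer than 1252. It was at least 444-fold higher in Balb/c hosts among wild-type tumors (edgeR adjusted p = 0.000236) and at least 430-fold higher among knockout tumors (adjusted p = 0.000186).

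Among the inhibitory receptors, Ctla4, whose product is held at high level by regulatory T cells, read 0.139 and 0 CPM in NSG wild type, 0 and 0 CPM in NSG knockout, 94.9 and 99.6 CPM in Balb/c wild type and 145 and 125 CPM in Balb/c knockout. In counts, 2 of Ctla4 were found in the parental and 0 in the other NSG libraries, and 1117 to 2735 in each Balb/c library. Ctla4 was at least 391-fold higher in Balb/c hosts among wild-type tumors (edgeR adjusted p = 0.000236) and at least 419-fold higher among knockout tumors (adjusted p = 0.000186). Cd96, a receptor of T and NK cells that binds CD155, had 0 counts in all 4 NSG libraries, where 3 counts come to 0.208 to 0.321 CPM. It read 17.1 and 8.87 CPM in Balb/c wild type and 11.0 and 12.9 CPM in Balb/c knockout, so the values of the wild-type lines lay on either side of the clones. Cd96 was at least 52.2-fold higher in Balb/c hosts among wild-type tumors (adjusted p = 0.00177) and at least 37.2-fold higher among knockout tumors (adjusted p = 0.0012).

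Pdcd1, which encodes PD-1, read 0.693 and 0.663 CPM in NSG wild type, 0.642 and 0.0994 CPM in NSG knockout, 23.4 and 63.6 CPM in Balb/c wild type and 45.2 and 64.3 CPM in Balb/c knockout. The parental tumor in Balb/c was the lowest of the 4 Balb/c libraries, and the vCas9 tumor was level with the clone 69 tumor. The log2 difference between hosts was 5.98 in wild-type tumors (SE 0.64, edgeR adjusted p = 0.00148) and 7.20 in knockout tumors (SE 0.73, adjusted p = 0.000635). The wild-type value was 5.16 without the vCas9 tumor in Balb/c. The knockout value rests on few NSG counts, 6 in the clone 54 and 1 in the clone 69 tumor, and came to 8.97 without the former and 6.39 without the latter.

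Lag3, whose product binds MHC class II, kept a low level in NSG hosts. It read 2.22 and 2.24 CPM in NSG wild type, 1.93 and 3.58 CPM in NSG knockout, 12.7 and 31.9 CPM in Balb/c wild type and 29.6 and 34.3 CPM in Balb/c knockout. As with Pdcd1, the parental tumor was the low one of the Balb/c libraries. The log2 difference between hosts was 3.33 in wild-type tumors (SE 0.48, edgeR adjusted p = 0.00393), or 2.58 without the vCas9 tumor in Balb/c, and 3.53 in knockout tumors (SE 0.48, adjusted p = 0.00191). TIGIT competes with the activating receptor CD226 for CD155. Tigit read 1.39 and 1.99 CPM in NSG wild type, 2.03 and 0.895 CPM in NSG knockout, 18.3 and 19.6 CPM in Balb/c wild type and 20.4 and 24.4 CPM in Balb/c knockout. Its 4 Balb/c libraries lay close together and apart from all NSG libraries. The log2 difference was 3.49 in wild-type tumors (SE 0.36, edgeR adjusted p = 0.00134) and 3.94 in knockout tumors (SE 0.38, adjusted p = 0.000555), the latter 4.63 without the clone 54 tumor in NSG.

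Havcr2, which encodes TIM-3 of T cells and myeloid cells, departed from this pattern. It read 89.5 and 94.8 CPM in NSG wild type, 39.5 and 37.2 CPM in NSG knockout, 78.0 and 121 CPM in Balb/c wild type and 98.0 and 95.9 CPM in Balb/c knockout. The NSG knockout libraries were the low ones, and the other 3 groups lay between 78.0 and 121 CPM. Between hosts the log2 difference of Havcr2 was 0.11 in wild-type tumors (SE 0.21, edgeR adjusted p = 0.712), where total-count scaling gave -0.051, and 1.34 in knockout tumors (SE 0.21, adjusted p = 0.00342). The 10 macrophage markers summed to 3528 and 3564 CPM in NSG wild type and 1828 and 2395 CPM in NSG knockout. In that list 10 of 10 genes were lower without overlap in NSG knockout, against 25.8% of all genes. In Balb/c hosts the list summed to 2354 and 2752 CPM in wild type and 11311 and 4656 CPM in knockout. Havcr2 did not rise with it there, as its Balb/c groups overlapped. The part of macrophages in the Havcr2 values was not tested.

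Of the PD-1 ligands, Cd274 was the more abundant, and its product is carried by tumor cells as well as leukocytes. Cd274 read 205 and 218 CPM in NSG wild type, 177 and 60.3 CPM in NSG knockout, 914 and 1018 CPM in Balb/c wild type and 442 and 946 CPM in Balb/c knockout. All Balb/c libraries exceeded all NSG libraries, and the clone 54 tumor was the lowest in Balb/c while the clone 69 tumor was the lowest in NSG. The log2 difference between hosts was 2.19 in wild-type tumors (SE 0.52, edgeR adjusted p = 0.0188) and 2.55 in knockout tumors (SE 0.53, adjusted p = 0.00976). The wild-type call did not hold when any 1 wild-type library was left out, with an adjusted p of 0.115 without the parental and 0.102 without the vCas9 tumor in NSG, and of 0.0668 and 0.0693 without the same lines in Balb/c. With the cell line as a block the adjusted p was 0.0705 in wild-type and 0.0521 in knockout tumors. With only the 4 samples compared it was 0.0532 in knockout tumors. The knockout value was 3.52 without the clone 54 tumor in NSG and 1.90 without the clone 69 tumor in Balb/c. Cd274 shares 511 exon bases with the antisense gene AC119228.1, and since the strand setting of the counting is not given in the sources used here, its level is uncertain to that extent.

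Pdcd1lg2, which is carried mainly by dendritic cells and macrophages, read 6.16 and 4.72 CPM in NSG wild type, 2.57 and 1.29 CPM in NSG knockout, 25.9 and 36.7 CPM in Balb/c wild type and 201 and 68.4 CPM in Balb/c knockout. The groups followed one another without overlap, NSG knockout lowest and Balb/c knockout highest. The log2 difference between hosts was 2.52 in wild-type tumors (SE 0.52, edgeR adjusted p = 0.0117) and 6.13 in knockout tumors (SE 0.62, adjusted p = 0.000642). The former did not pass without the parental tumor in NSG (adjusted p = 0.0747), the vCas9 tumor in NSG (0.0850) or the vCas9 tumor in Balb/c (0.0565). The latter was 5.13 without the clone 54 tumor in Balb/c.

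**Figure D2:**
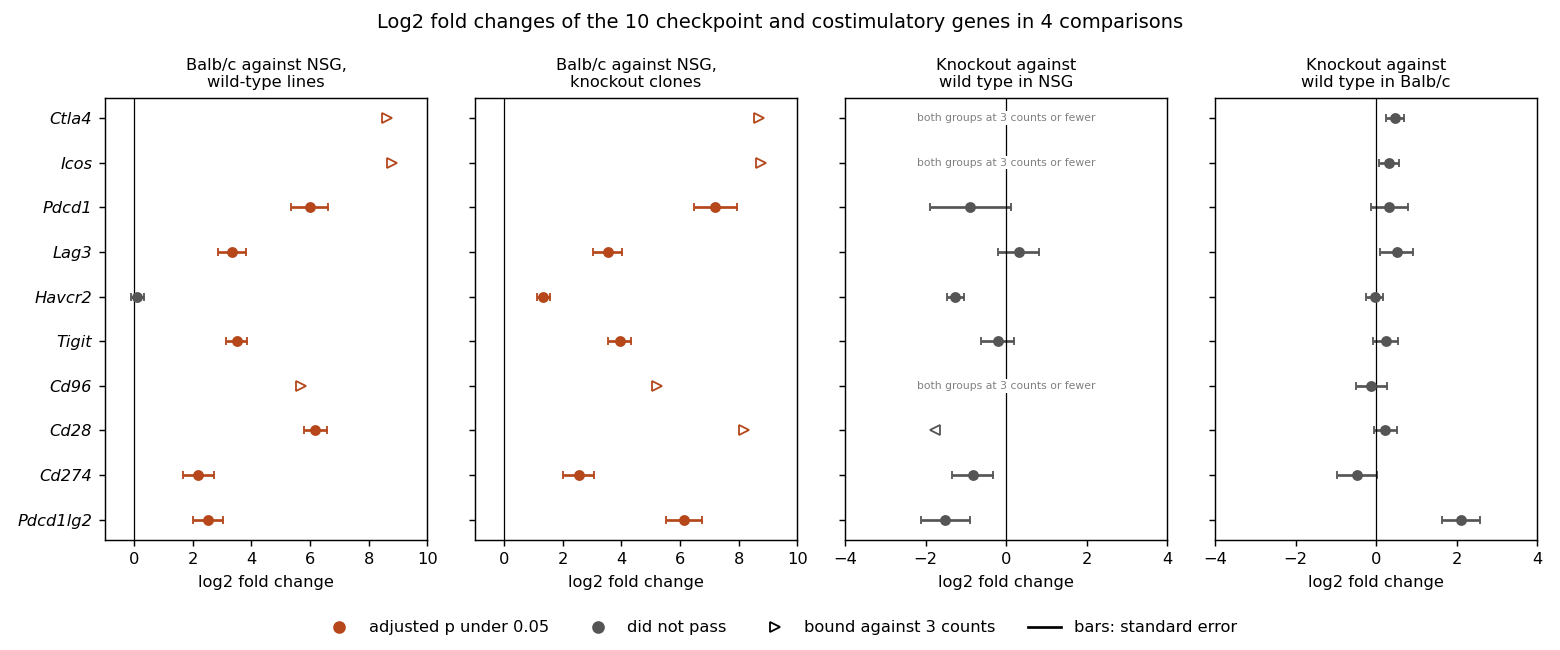
Log2 fold changes of the 10 genes in the host comparison within each genotype and the knockout comparison within each host, with bars for the standard error and open triangles for bounds measured against 3 counts. All values in the host panels lie to the right of 0, that of Havcr2 in wild-type tumors nearest to it at 0.11, and no value in the knockout panels passed an adjusted p of 0.05.

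Levels were compared between genes per kilobase of exon. Cd274 had the highest level in each of the 4 groups, with a mean of 58.4 CPM per kb in NSG wild type, 32.8 in NSG knockout, 267 in Balb/c wild type and 192 in Balb/c knockout. In NSG tumors Havcr2 came next, at 33.9 CPM per kb in wild type and 14.1 in knockout, and every other gene had a mean level of at most 2.78 CPM per kb, that of Pdcd1lg2 in NSG wild type. Below it in NSG wild type came Tigit (1.84 CPM per kb), Lag3 (1.06), Pdcd1 (0.351) and Cd28 (0.177), all apart, and in NSG knockout Tigit (1.59), Lag3 (1.31) and Pdcd1lg2 (0.984) overlapped. In Balb/c wild type the order below Cd274 was Ctla4 (41.7 CPM per kb), Havcr2 (36.5), Icos (32.2), Pdcd1 (22.5), Tigit (20.7), Pdcd1lg2 (16.0), Cd28 (13.0), Lag3 (10.6) and Cd96 (5.94). The ranges of neighbours in that order overlapped except between Cd274 and Ctla4 and between Tigit and Pdcd1lg2. In Balb/c knockout Pdcd1lg2 stood second, at a mean of 68.7 CPM per kb, with a range from 34.9 to 103 that took in Ctla4 (57.8), Icos (40.2) and Havcr2 (35.6). Below these came Pdcd1 (28.4), Tigit (24.4), Cd28 (15.2), Lag3 (15.2) and Cd96 (5.46), of which Pdcd1 and Tigit overlapped, as did Cd28 and Lag3, while the other neighbours in the order were apart.

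Knockout and wild-type tumors were next compared within NSG hosts, where T cell genes are scarce. None of the 10 genes passed an edgeR adjusted p under 0.05, against 0.0131% of all genes tested (2 of 15310). DESeq2 called 1 of the 10 and 340 genes over all, and limma-voom 0 of the 10. At an unadjusted p under 0.05, 3 of the 10 were lower in the knockout clones, namely Havcr2, Cd28 and Pdcd1lg2, and none was higher, while 7.25% of all genes were lower and 6.78% higher at that level. The libraries were apart for 5 genes, all lower in the clones (Pdcd1, Havcr2, Cd28, Cd274 and Pdcd1lg2), against 25.8% of all genes lower and 26.7% higher without overlap. In the same libraries 6 of 6 epithelial tumor markers were higher in the clones without overlap, with a summed level of 1101 and 1393 CPM in wild type and 2792 and 1923 CPM in the clones, and their part in the lower values was not tested. The log2 difference of Havcr2 was -1.27 (SE 0.21, adjusted p = 0.127); it passed with DESeq2 (adjusted p = 0.00027) and without the low-count filter (0.0195). Cd28 was at least 3.38-fold lower (adjusted p = 0.194, and 0.0327 without the low-count filter), with all its knockout libraries at or under 1 count. The T cell marker Cd3e had 26 and 35 counts in wild type and 1 and 3 in the clones. It was at least 7.32-fold lower (edgeR adjusted p = 0.123). Of the 14 T cell core genes 2 were lower and 0 higher without overlap, and their part in the lower Cd28 was not tested. The differences of Pdcd1lg2, Cd274 and Pdcd1 were -1.51 (SE 0.61, adjusted p = 0.337), -0.83 (SE 0.51, adjusted p = 0.483) and -0.89 (SE 1.001, adjusted p = 0.710). These values moved with single libraries: without the clone 54 tumor in NSG Cd274 and Pdcd1 were at -1.81 and -2.67, and without the clone 69 tumor at -0.26 and -0.082. The differences of Lag3 and Tigit were 0.31 (SE 0.51) and -0.20 (SE 0.41), each within overlapping libraries. Their sign turned with 1 library left out, with ranges from -0.21 to 0.68 and from -0.90 to 0.27. Ctla4, Icos and Cd96 were at or under 3 counts in all 4 libraries, which allows no comparison.

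Within Balb/c hosts, where the immune system is intact, knockout and wild-type tumors were compared in the same way. None of the 10 genes passed an edgeR adjusted p under 0.05, against 0.176% of all genes (27 of 15310). DESeq2 called 1 of the 10 and 2208 genes over all, and limma-voom 0 of the 10. Pdcd1lg2 alone had an unadjusted p under 0.05, against 30.9% of all genes in either direction and 16.6% higher. Its log2 difference was 2.11 (SE 0.48, edgeR adjusted p = 0.0577), from 25.9 and 36.7 CPM in wild type to 201 and 68.4 CPM in the clones. The value depended on which clone was kept: 2.69 without the clone 69 tumor and 1.02 without the clone 54 tumor. Pdcd1lg2 passed with DESeq2 (adjusted p = 0.00108) and without the low-count filter (0.00748), settings in which far more genes passed as well. Ctla4, Icos and Tigit were also higher in both clones than in both wild-type tumors, which makes 4 genes apart and higher against 32.9% of all genes, and none was apart and lower, against 29.3%. Their log2 differences were 0.47 for Ctla4 (SE 0.23, adjusted p = 0.209), 0.32 for Icos (SE 0.25, adjusted p = 0.406) and 0.24 for Tigit (SE 0.31, adjusted p = 0.623). Of 6 regulatory T cell markers 4 were lower and 1 higher without overlap in the clones, and Foxp3 differed by -0.56 (SE 0.32, edgeR adjusted p = 0.269). The part of these cells in the receptor values was not tested.

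The remaining receptors and Cd274 overlapped between the Balb/c groups. The log2 difference was 0.33 for Pdcd1 (SE 0.46), 0.51 for Lag3 (SE 0.41), -0.035 for Havcr2 (SE 0.21), -0.12 for Cd96 (SE 0.39), 0.22 for Cd28 (SE 0.29) and -0.48 for Cd274 (SE 0.50), with adjusted p from edgeR between 0.422 and 0.923. For Pdcd1, Cd28, Cd96 and Havcr2 the sign turned when 1 Balb/c library was left out, so these data fix no direction for them. Lag3 was at 0.0017 without the parental and 1.24 without the vCas9 tumor in Balb/c, and Cd274 at -0.13 without the clone 54 and -1.12 without the clone 69 tumor there. Other cell markers moved between the same libraries. The macrophage list summed to 2354 and 2752 CPM in Balb/c wild type and to 11311 and 4656 CPM in the clones. Of its markers 10 of 10 were higher without overlap, against 32.9% of all genes. The neutrophil list summed to 7682 and 6058 CPM against 549 and 2662 CPM. Of its markers 7 of 8 were lower without overlap, against 29.3% of all genes. The clone 54 tumor was highest in Pdcd1lg2 and lowest in Cd274 of the Balb/c tumors. It was also the highest in macrophage and the lowest in neutrophil and epithelial tumor markers. The epithelial list summed to 738 and 1793 CPM in Balb/c wild type and to 612 and 3260 CPM in the clones. The part of macrophages, neutrophils and tumor cells in the ligand values was not tested.

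**Figure D3:**
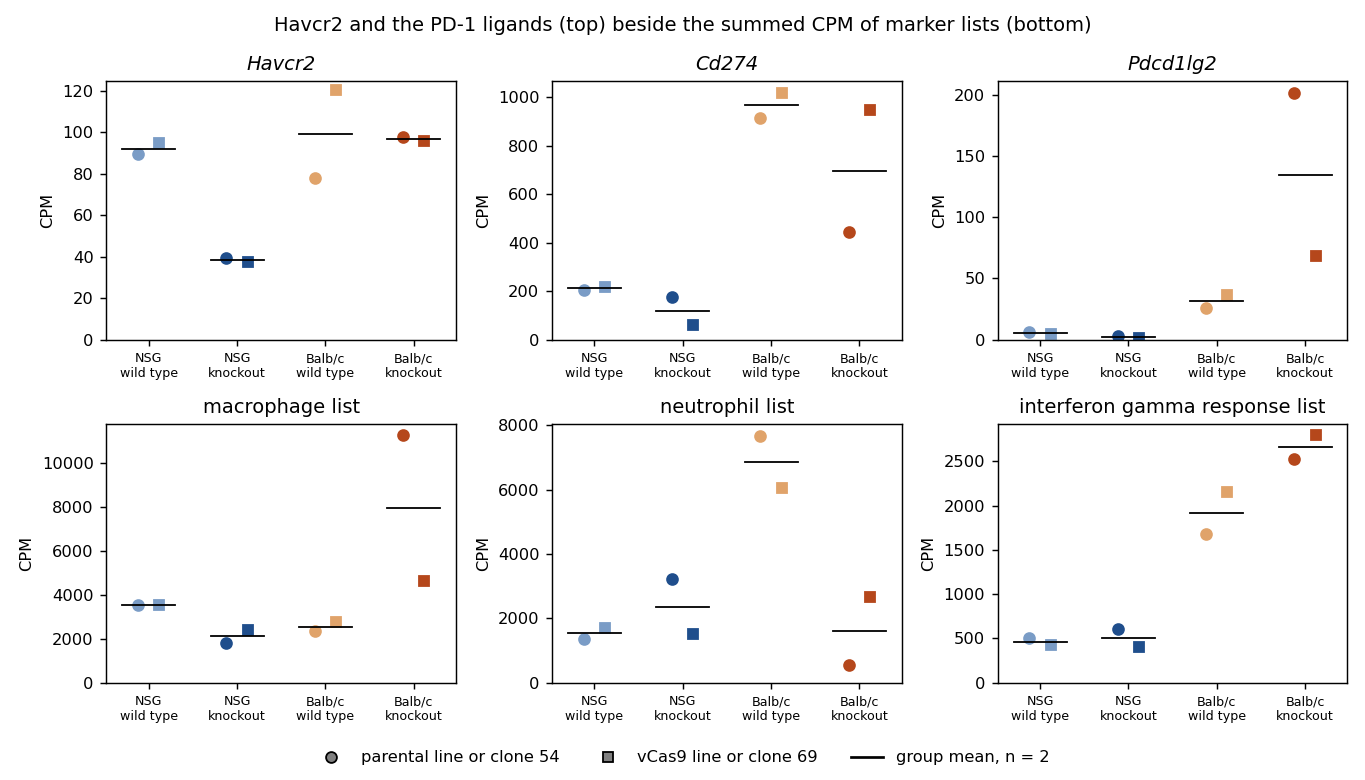
CPM of Havcr2, Cd274 and Pdcd1lg2 (top) and summed CPM of the macrophage, neutrophil and interferon gamma response lists (bottom) in every library, with lines for the mean of 2 libraries. The clone 54 tumor in Balb/c reads 201 CPM in Pdcd1lg2 and 442 CPM in Cd274, with 11311 CPM in the macrophage and 549 CPM in the neutrophil list.

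The difference of the knockout effect between hosts was tested as an interaction. It passed an edgeR adjusted p under 0.05 for none of the 10 genes and for 0% of all genes. DESeq2 called 3 of the 10 and 974 genes over all, and limma-voom 0 of the 10. At an unadjusted p under 0.05 the interaction was positive for 3 of the 10 (Havcr2, Pdcd1lg2 and Cd28) and negative for none. Over all genes 12.4% were positive and 10.1% negative at that level. The interaction was 1.23 for Havcr2 on the log2 scale (SE 0.30, adjusted p = 0.100) and 3.61 for Pdcd1lg2 (SE 0.77, adjusted p = 0.0893). Without the clone 69 tumor in Balb/c they were 1.26 (adjusted p = 0.0435) and 4.20 (adjusted p = 0.00712). Leaving out any other library gave 0.96 to 1.503 for Havcr2 (adjusted p from 0.1196 to 0.359) and 2.52 to 4.19 for Pdcd1lg2 (adjusted p from 0.0928 to 0.353), the 2.52 without the clone 54 tumor in Balb/c. With DESeq2 the adjusted p was 0.0313 and 0.000161. Of 16 alternative settings, 2 called Havcr2 and 3 called Pdcd1lg2. The Cd28 value has no size to give, because its NSG knockout group was at the floor. For Pdcd1, Lag3, Tigit and Cd274 the interaction was 1.22 (SE 1.10), 0.20 (SE 0.66), 0.44 (SE 0.51) and 0.35 (SE 0.71), none with an unadjusted p under 0.05. That of Pdcd1 was 0.42 without the clone 69 and 3.0001 without the clone 54 tumor in NSG. Those of Lag3, Tigit and Cd274 turned in sign with 1 library left out. They ranged from -0.31 to 0.94, from -0.030 to 1.15 and from -0.29 to 1.34.

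Receptor counts were also set against T cell content, as counts per 100 counts of Cd3d, Cd3e and Cd3g together, which encode chains of the T cell receptor complex. This was possible in Balb/c tumors only, since the 3 genes summed to between 3 and 42 counts in NSG libraries and to 1587 or more in Balb/c libraries. Ctla4 came to 70.4 and 84.4 counts per 100 CD3 counts in wild type and 133 and 106 in the clones. Icos came to 78.9 and 96.9 against 114 and 129, Tigit to 13.6 and 16.6 against 18.7 and 20.8, and Lag3 to 9.45 and 27.1 against 27.2 and 29.1. For these 4 genes both clones lay above both wild-type tumors, for Lag3 by a narrow margin. Of all genes tested 39.2% lay above in both clones on this ratio, so that 4 of the 8 receptors is near the background. Pdcd1 came to 17.3 and 53.9 against 41.6 and 54.6, Cd28 to 75.4 and 49.2 against 95.6 and 70.1, and Cd96 to 12.7 and 7.52 against 10.1 and 11.0, all overlapping. Havcr2, which myeloid cells also express, came to 57.8 and 102 against 90.03 and 81.5 and overlapped too. The log2 ratio of the clones to wild type was 0.62 for Ctla4, 0.47 for Icos, 0.82 for Lag3, 0.39 for Tigit, 0.64 for Pdcd1, 0.43 for Cd28, 0.16 for Havcr2 and 0.11 for Cd96. An exact permutation test of 2 against 2 samples cannot go below p = 0.333 (two-sided), so these values are a description. The reference mattered: Cd3e itself read 66.0 and 51.4 CPM in wild type and 26.0 and 37.5 CPM in the clones (log2 difference -0.89, SE 0.28, edgeR adjusted p = 0.0887), and against Cd3e alone the ratio was 1.37 for Ctla4, 1.22 for Icos, 1.38 for Pdcd1 and 1.56 for Lag3, and both clones lay above both wild-type tumors for all 8 receptors, as they did for 72.2% of all genes, so that this count says little of the receptors. Against all 14 T cell core genes Ctla4, Icos and Tigit stayed apart, Cd28 was apart as well, and Lag3 overlapped; 34.5% of all genes were above in both clones on that ratio.

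**Figure D4:**
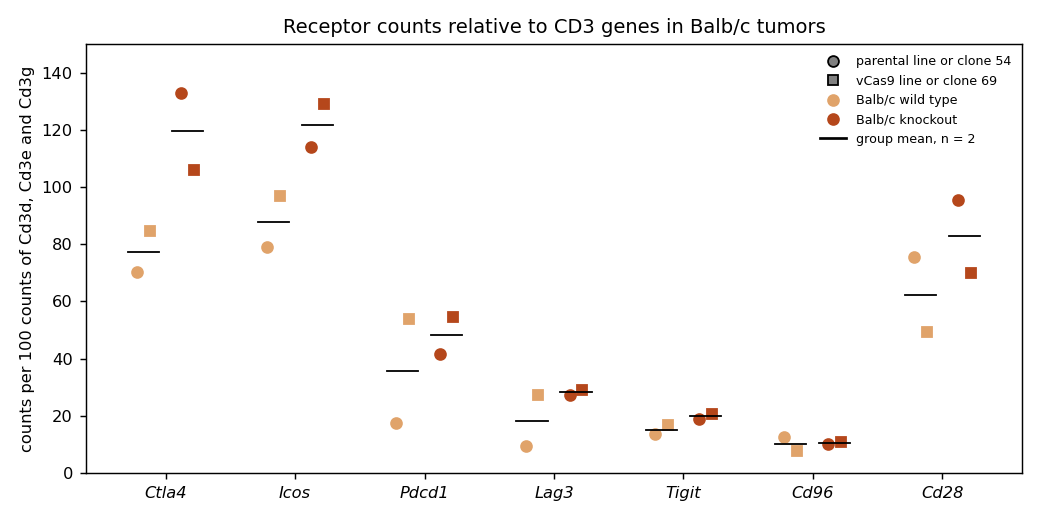
Counts of 7 receptor genes per 100 counts of Cd3d, Cd3e and Cd3g in the 4 Balb/c tumors, with lines for the mean of 2 libraries. For Ctla4, Icos, Lag3 and Tigit both knockout clones lie above both wild-type lines, by a narrow margin for Lag3 (27.2 against 27.1), and for the other 3 the groups overlap.

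Other genes of the same system moved with the host as well. Of 14 other costimulatory and inhibitory genes, all receptors but the ligand Cd40lg and the ectoenzyme Entpd1, 13 were higher in Balb/c hosts in wild-type tumors and 14 in knockout tumors, against 15.3% and 15.7% of all genes; the same shares apply to the lists that follow. Tnfrsf9, the costimulatory receptor 4-1BB, read 10.9 and 11.5 CPM in NSG wild type, 5.56 and 2.29 CPM in NSG knockout, 57.4 and 77.7 CPM in Balb/c wild type and 121 and 153 CPM in Balb/c knockout. Its log2 difference between hosts was 2.59 in wild-type tumors (SE 0.34, edgeR adjusted p = 0.00281) and 5.13 in knockout tumors (SE 0.39, adjusted p = 0.000319), and its interaction of 2.54 (SE 0.48, adjusted p = 0.0801) did not pass. Tnfrsf18, which encodes GITR of regulatory T cells, differed by 4.31 in wild-type tumors (SE 0.38, adjusted p = 0.000828) and 3.05 in knockout tumors (SE 0.34, adjusted p = 0.000947). Its interaction was -1.26 (SE 0.49, adjusted p = 0.189). At an unadjusted p under 0.05 the interaction was positive for 2 of the 14 genes and negative for 2, against 12.4% and 10.1% of all genes. Klrg1, a receptor of effector T and NK cells, had 0 counts in the NSG libraries and was at least 11.9-fold higher in Balb/c hosts in wild-type tumors (adjusted p = 0.00343) and at least 17.2-fold higher in knockout tumors (adjusted p = 0.00159).

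Between hosts the ligands of these receptors were found in both directions. Of 17 ligand genes tested, 2 were higher and 4 lower in Balb/c hosts in wild-type tumors, and 5 were higher and 3 lower in knockout tumors. Over all genes 15.3% were higher and 16.2% lower in wild-type tumors, and 15.7% and 15.4% in knockout tumors, so that the ligand counts lie near the background, the 5 higher in knockout tumors being furthest above it. Cd80, the ligand of both CD28 and CTLA-4, read 61.8 and 68.1 CPM in NSG wild type, 53.0 and 32.4 CPM in NSG knockout, 283 and 363 CPM in Balb/c wild type and 152 and 333 CPM in Balb/c knockout. It was thus higher in every Balb/c library, with a log2 difference of 2.32 in wild-type (SE 0.39, edgeR adjusted p = 0.00657) and 2.50 in knockout tumors (SE 0.40, adjusted p = 0.00329). Ceacam1, a TIM-3 ligand, differed by 2.89 in wild-type (SE 0.49, adjusted p = 0.00657) and 1.95 in knockout tumors (SE 0.48, adjusted p = 0.0182), and Lgals3, a LAG-3 ligand, by 2.02 in knockout tumors (SE 0.33, adjusted p = 0.00388) against -0.11 in wild-type tumors (SE 0.32, adjusted p = 0.816). Lower in Balb/c hosts were Cd276, which encodes B7-H3 (-1.30, SE 0.28, adjusted p = 0.0136 in wild-type and -2.65, SE 0.29, adjusted p = 0.000872 in knockout tumors), Tnfsf18, which encodes the GITR ligand (-3.71, SE 0.42, adjusted p = 0.00175 and -2.15, SE 0.38, adjusted p = 0.00484), and Nectin1 (-0.84, SE 0.22, adjusted p = 0.026 and -1.43, SE 0.22, adjusted p = 0.00319).

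The lists of cells and programs around the receptors followed the host too. Of 6 regulatory T cell markers, 5 were higher in Balb/c hosts in wild-type and 4 in knockout tumors, and Foxp3, the factor that defines these cells, differed by 3.30 (SE 0.37, edgeR adjusted p = 0.00175) and 2.40 (SE 0.37, adjusted p = 0.00292). Among 13 regulators of T cell activation and exhaustion, 8 and 10 were higher. Tox, a factor of exhausted T cells, was at least 65.8-fold higher in wild-type tumors (adjusted p = 0.00214) and at least 20.8-fold higher in knockout tumors (adjusted p = 0.00236). Cd3e, Cd4 and Cd8a differed by 4.65 (SE 0.34), 3.19 (SE 0.47) and 6.52 (SE 0.47) in wild-type tumors, with adjusted p of at most 0.00405. In knockout tumors Cd4 and Cd8a differed by 3.62 (SE 0.48, adjusted p = 0.00174) and 6.82 (SE 0.50, adjusted p = 0.000296), and Cd3e, at 1 and 3 counts in NSG, was at least 98.9-fold higher (adjusted p = 0.000238).

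Interferon gamma, which induces PD-L1, was detected in Balb/c hosts only. Ifng had 0 counts in the 4 NSG libraries, which allows up to 0.321 CPM, and read 3.31 and 6.31 CPM in Balb/c wild type and 17.5 and 12.3 CPM in Balb/c knockout. Of 12 genes of the interferon gamma response, Ifng included, 10 were higher in Balb/c hosts in wild-type and 11 in knockout tumors. The list summed to between 407 and 603 CPM in NSG and between 1680 and 2799 CPM in Balb/c tumors. Cxcl9, a chemokine that draws T cells, read 14.01 and 33.7 CPM in Balb/c wild type and 185 and 53.2 CPM in Balb/c knockout, with the clone 54 tumor highest. The whole list was highest in the clone 69 tumor, at 2799 CPM against 2525 CPM in the clone 54 tumor. In the knockout comparisons within NSG and within Balb/c hosts, no gene of any of the 12 lists passed an edgeR adjusted p under 0.05. At an unadjusted p under 0.05, 3 of 6 epithelial markers were higher and 4 of 10 macrophage and 4 of 10 dendritic cell markers lower in NSG hosts, against 6.78% and 7.25% of all genes. Of the 10 dendritic cell markers 6 were lower and 1 higher without overlap, against 25.8% and 26.7% of all genes. Their part in the lower Pdcd1lg2 was not tested. The ligand list had 2 of 17 higher and 4 lower, and every other list had 0 to 2 genes higher and 0 to 3 lower. In Balb/c hosts 5 of the 12 interferon gamma response genes, 9 of 10 macrophage markers and 3 of 10 NK cell markers were higher at that level, against 16.6% of all genes. There 5 of 8 neutrophil and 6 of 8 B cell markers were lower, against 14.3%. The B cell list summed to 223 and 55.6 CPM in Balb/c wild type and 53.9 and 32.7 CPM in the clones, so the parental tumor stood apart. Of the 13 activation and exhaustion regulators 4 were lower at an unadjusted p under 0.05, namely Tox, Tcf7, Nr4a3 and Nfatc1, and 1, Tbx21, was higher. The log2 differences of the 4 were -1.29, -1.70, -0.88 and -0.76, with edgeR adjusted p from 0.0773 to 0.144. That of Tbx21 was 1.10 (SE 0.39, adjusted p = 0.118). Without overlap 5 of the 13 were higher and 4 lower, against 32.9% and 29.3% of all genes, and the list median was 0.16. The wild-type Tcf7 values lay far apart, the parental tumor being the higher.

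The genes most like each member over the 8 libraries were taken as those with the smallest root mean square difference of centred log2 CPM. For Ctla4 these were Gzma (0.474), Cd3g (0.549) and Gzmb (0.570), and for Icos they were Gzmb (0.539), Prf1 (0.554) and Cd3g (0.563). Pdcd1 was nearest to Klrd1 (0.326), Fasl (0.388) and Il2rb (0.434), Cd96 to Ubash3a (0.185), Gimap7 (0.206) and Cd6 (0.407), and Cd28 to Sh2d2a (0.462), Alox15 (0.789) and Fasl (0.840). Lag3 was nearest to Ppp2r2c (0.267), Gna15 (0.284) and Cysltr2 (0.365), Tigit to Ltb4r2 (0.126), P2ry14 (0.318) and Atp2a3 (0.323), and Havcr2 to Vegfa (0.141), Trim36 (0.153) and Slc11a2 (0.165). Pdcd1lg2 was nearest to Ccl5 (0.483), Serpina3g (0.534) and Cxcl9 (0.60), and Cd274 to Slc51a (0.119), Olfr1373 (0.164) and Smlr1 (0.220). The libraries are shared by all genes, and with a prior count of 0.5 in place of 2, 22 of the 30 neighbours were the same.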

How the data were processed

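RNA of 4T1 tumors was sequenced in 8 libraries, and the authors deposited raw read counts per Ensembl gene, 1 library per file. Per the submitters' processing notes, cutadapt 1.13, STAR, HTSeq 0.6.1p1 and DESeq2 were used, and the builds mm10 and hg19 are named without a role. The strand setting, annotation and filters are not given in the sources used here. Symbols came from a gene name table (24942 of 25006 identifiers) and positions and exon lengths from GENCODE M21 on GRCm38 (24991 identifiers), which may differ from the authors' annotation.

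Counts were fitted with edgeR 4.0.16 in R 4.3.3 (TMM, filterByExpr, glmQLFit, glmQLFTest) in 1 model of all 8 libraries with 4 group means and 4 residual degrees of freedom. The Benjamini-Hochberg adjustment ran over all 15310 genes kept, and 0.05 was the threshold. Fold changes against a group with at most 3 counts in each library are bounds against 3 counts. The scripts were tested on simulated data. Host comparisons are paired by design, as every line grew in NSG and in Balb/c mice; deviations of same-numbered tumors correlated at 0.0875 for the wild-type lines and -0.353 for the clones, and the block fit is given where it changes a call. Replicates differed beyond sampling noise, with a chi-square per degree of freedom of 18.1 to 115. The labels name no batch.

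The members, the 12 gene lists and the tests were chosen with earlier results of these data known. Named were all 10 members, Fas, Cd3e, Cd4, Cd8a and Foxp3, and per list genes taken from the up to 3 per direction with the largest change past the threshold, without overlap and with a mean of at least 1 CPM in the higher group. Cxcl9, Tnfrsf9 in wild-type tumors and the interactions of listed genes were chosen after their values were seen. Named outside that rule were also Lgals3 in wild-type tumors, Tnfrsf18 in knockout tumors, and Tox, Tcf7, Nr4a3, Nfatc1 and Tbx21 in the Balb/c knockout comparison. Alternatives were RLE and total-count scaling, no filter and a stricter one (30 counts), DESeq2 1.42.0, limma-voom (limma 3.58.1), the line block, only the 4 samples compared, leaving out each library, and other CD3 references.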

Additional observations from a re-analysis of the deposited data

How the results depend on the processing

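Over all alternatives, 642 results for single genes kept their direction and side of the threshold, 10 no longer passed it, 11 newly passed it and 17 turned in sign. In wild-type tumors, 4825 genes differed between hosts, 2073 with the cell line as replicate block and 858 to 6361 with 1 library left out; of the 10 genes 9 were called, 8 with the block and 7 to 9 with 1 library left out. In knockout tumors 4757 genes differed, 2878 with the block, 2450 with only the 4 samples compared and 2461 to 4640 with 1 library left out; the 10 called became 9 with the block and 9 with only the 4 samples. The crossed pairing of the clones, added after seeing the data, gave 5436.

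Knockout calls were few and unstable. In NSG hosts 2 genes passed, 133 without the low-count filter, 340 with DESeq2, 1 with limma-voom, 1 with only the 4 samples compared and 0 to 1 with 1 library left out; of the 10 genes 0 passed, 2 without the filter and 1 with DESeq2. In Balb/c hosts 27 genes passed, 94 with RLE size factors, 1774 without the filter, 2208 with DESeq2, 0 with only the 4 samples compared and 0 to 3886 with 1 library left out, the 3886 without the clone 69 tumor; of the 10 genes 0 passed, 1 without the filter, 1 with DESeq2 and 0 to 1 with 1 library left out. For the interaction 0 genes passed, 674 without the filter, 974 with DESeq2, 307 with the crossed block and 0 to 2370 with 1 library left out, the 2370 again without that tumor; with the line block 0 passed. Of the 10 genes 0 passed the interaction, 2 without the filter, 3 with DESeq2, 1 with the crossed block and 0 to 3 with 1 library left out.

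The 17 turns of sign were all in differences that passed under neither setting. Havcr2 between hosts in wild-type tumors (0.11) became -0.051 with total counts and ranged from -0.17 to 0.38 with 1 library left out. Between clones and wild type in Balb/c, Havcr2 (-0.035) became 0.013 with total counts and 0.0017 with limma-voom. With 1 library left out in that comparison, Havcr2 ranged from -0.31 to 0.23, Cd28 from -0.20 to 0.69, Cd96 from -0.60 to 0.43 and Pdcd1 from -0.22 to 1.14. In NSG, Lag3 ranged from -0.21 to 0.68 and Tigit from -0.90 to 0.27. For the interaction, Cd274 ranged from -0.29 to 1.34, Lag3 from -0.31 to 0.94 and Tigit from -0.030 to 1.15. The causes were not tested. Against Cd3e alone, the log2 ratio of clones to wild type in Balb/c was 1.37 for Ctla4, 1.22 for Icos, 1.17 for Cd28, 1.133 for Tigit, 1.56 for Lag3, 1.38 for Pdcd1, 0.90 for Havcr2, 0.85 for Cd96 and 0.32 for Cd274. Total-count scaling moved the median of all genes from -0.079 to -0.24 between hosts in wild-type tumors and from 0.022 to -0.17 in knockout tumors. Depth limits the NSG values of Ctla4, Icos, Cd96, Cd28 and Pdcd1, which rest on 17 counts or fewer per library.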

Other observations

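The parental and vCas9 tumors in Balb/c hosts, both of wild-type CD95 status, are set side by side here; the genes named were picked after their values were seen, from several lists, and the values carry no test. The T cell core list summed to 839 CPM in the parental and 571 CPM in the vCas9 tumor, and the NK cell list to 169 and 277 CPM. The parental tumor was higher in Cd28 (102 against 58.0 CPM), Cd96 (17.1 against 8.87 CPM) and Cd4 (56.3 against 20.9 CPM). It was also higher in the naive and memory T cell factor Tcf7 (62.1 against 18.1 CPM). The same held for the homing receptor Ccr7 (184 against 54.5 CPM), a gene of the dendritic cell list. The activation and exhaustion list, which holds Tcf7, summed to 1582 CPM in the parental and 1643 CPM in the vCas9 tumor. The dendritic cell list summed to 575 and 461 CPM. The vCas9 tumor was higher in Pdcd1 (63.6 against 23.4 CPM), Lag3 (31.9 against 12.7 CPM), Havcr2 (121 against 78.0 CPM), Cd8a (80.9 against 43.6 CPM) and the granzyme gene Gzma (98.8 against 64.0 CPM). Ctla4, Icos and Tigit were close in these tumors. The 8 B cell markers summed to 223 CPM in the parental and to 55.6 CPM in the vCas9 tumor. The 6 epithelial tumor markers summed to 738 and 1793 CPM. The part of other lymphocytes and of tumor cells in these values was not tested.

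Marker lists of other cells were compared between hosts as well. Over all genes 15.3% were higher and 16.2% lower in wild-type tumors, and 15.7% higher and 15.4% lower in knockout tumors. Of 10 NK cell markers, 9 were higher in Balb/c hosts and 1, Klra8, lower, in wild-type and in knockout tumors alike. All 8 B cell markers were higher in wild-type tumors and 3 of 8 in knockout tumors. Of 10 dendritic cell markers, 6 were higher and 1 lower in wild-type tumors and 8 higher and 1 lower in knockout tumors, with Fscn1 the lower one in both. Macrophage markers gave 1 higher and 2 lower of 10 in wild-type tumors and 8 higher in knockout tumors. Neutrophil markers gave 4 and 1 of 8 higher, and of 6 epithelial markers none passed in wild-type tumors while Krt14 was lower in knockout tumors. The macrophage and epithelial counts in wild-type tumors and the neutrophil and epithelial counts in knockout tumors are near or under the all-gene shares. So are the counts of lower NK and dendritic cell markers.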
